A study of Mus musculus with 10 samples.

Results

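RNA polymerase II occupancy was mapped with ChIP-seq (sequencing of immunoprecipitated chromatin) in T helper 1 (Th1) cells that had not been restimulated, labelled NR. Both polymerase libraries with that label were taken, 2 of the 10 samples of the series, as replicate 1 and replicate 2. The other samples were polymerase libraries after 30 min and 2 h of restimulation, histone H3K36me3 libraries and 1 input, and no value of theirs is used here. The cells came from Balb/c DO11.10 mice, a strain whose T cells carry a transgenic receptor for an ovalbumin peptide. CD4+ T cells were purified, primed for 36 to 48 h with anti-CD3, anti-CD28, IL-12 and an antibody to IL-4, and expanded for 2 or 3 days in Proleukin, an IL-2 analog. Proleukin was left out of the medium on the last day, and anti-CD3 and anti-CD28 were not given again to the NR cells. The cells therefore had been activated once, and resting here means not restimulated. Cells were fixed for 10 min in 1% formaldehyde and precipitated with 8WG16, an antibody to the repeat tail of the largest polymerase subunit. The labels do not say whether the replicates came from separate mice or cultures, nor the age of the mice.

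RNA polymerase II transcribes the protein-coding genes and many non-coding RNA genes. At many promoters it initiates and then stops shortly after the start until it is released into the gene body, so a promoter can hold polymerase while little full RNA is made. In T cells, genes of the antigen receptor, the lineage factors and inducible genes such as cytokines differ in how far polymerase is loaded before a stimulus arrives. The 8WG16 antibody is known to prefer tail repeats with little phosphorylation, so signal from elongating polymerase may be under-represented.

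Each library came with 1 list of promoter peaks, which lie within 1000 bp of a gene start and carry the gene given to them, and with the summit of every peak. Replicate 1 held 19888 peaks, of which 9360 (47.1%) were promoter peaks, and replicate 2 held 17627, of which 10383 (58.9%) were. Fold enrichment was taken as the ratio of the pileup (the number of overlapping fragments at the summit) to the local background, with 1 added to both. Pileups were whole numbers in replicate 1 and multiples of 0.577 in replicate 2, so the latter had been scaled. The lowest local background implied by pileup and fold enrichment was 0.659 pileup units in replicate 1 and 3.41 in replicate 2. Local backgrounds did not move in the pileup steps: in replicate 2 many lay near whole numbers, such as 5.00 at Gtf2a1 and 10.0 at Nabp1. The lowest values therefore do not tell how deep the background was in either library. The median −log10 q-value over all peaks, at promoters and elsewhere, was 7.82 in replicate 1 and 34.5 in replicate 2. Values were therefore ranked inside each library, and no level is compared between the libraries.

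A promoter peak was given to 8359 genes in replicate 1 and to 9405 in replicate 2. Both libraries had one for 8185 genes, which was 97.9% of the genes of replicate 1 and 87.0% of those of replicate 2. Of these genes 7809 coded for protein, 35.7% of the 21887 protein-coding genes of the annotation, and 242 were long non-coding RNA genes and 64 microRNA genes. The 1220 genes found in replicate 2 alone were weaker, with a median fold enrichment of 5.62 against 16.1 for the genes found in both. The 174 genes of replicate 1 alone had a median of 6.37 against 10.5. The promoter peaks of the libraries merged into 10431 regions, of which 8642 (82.8%) held peaks of both, and the Jaccard index of their bases was 0.678. Across the 8185 shared genes Spearman's rho between the libraries was 0.80 for fold enrichment, 0.81 for summed peak length and 0.87 for pileup, as a description only, since genes are not independent replicates. Summits of protein-coding genes lay at a median of 50 bp past the annotated start in replicate 1 and 46 bp in replicate 2. Within 150 bp of the start were 60.7% and 69.2% of them.

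The promoters of 7 genes on which the results below turn are printed here, because they span the range from the strongest to the cytokine promoters. Each run is the 150 bases before the RefSeq start, 5′ to 3′ on the strand of the gene, from RefSeq on GRCm38 (mm10). The reference strain is C57BL/6J and not the strain of the cells. Capitals mark matches on either strand to TATAAA or CCAAT, which are letters and not shown sites.
Hist1h3i, chr13:21783398-21783547, minus strand: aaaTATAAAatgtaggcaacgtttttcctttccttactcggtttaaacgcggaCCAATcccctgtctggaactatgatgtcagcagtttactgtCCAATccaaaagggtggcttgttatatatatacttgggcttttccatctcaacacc
Hist1h2ad, chr13:23574231-23574380, plus strand: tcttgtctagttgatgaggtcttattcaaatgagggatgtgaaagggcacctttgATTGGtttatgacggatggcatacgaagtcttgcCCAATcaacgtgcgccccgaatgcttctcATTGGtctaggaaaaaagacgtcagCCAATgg
Tmsb4x, chrX:167209219-167209368, minus strand: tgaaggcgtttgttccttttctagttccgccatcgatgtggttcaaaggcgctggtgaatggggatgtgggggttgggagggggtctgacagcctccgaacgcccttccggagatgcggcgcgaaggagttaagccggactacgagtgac
Satb1, chr17:51826589-51826738, minus strand: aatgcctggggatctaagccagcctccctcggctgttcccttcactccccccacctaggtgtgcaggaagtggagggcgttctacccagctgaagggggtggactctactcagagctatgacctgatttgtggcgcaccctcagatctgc
Il2ra, chr2:11642642-11642791, plus strand: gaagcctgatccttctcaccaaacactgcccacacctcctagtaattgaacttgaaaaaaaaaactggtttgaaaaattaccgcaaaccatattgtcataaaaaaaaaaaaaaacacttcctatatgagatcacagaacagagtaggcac
Tbx21, chr11:97115332-97115481, minus strand: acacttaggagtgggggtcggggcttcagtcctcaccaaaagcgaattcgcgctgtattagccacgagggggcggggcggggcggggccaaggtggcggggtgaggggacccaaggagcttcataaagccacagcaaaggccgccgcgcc
Ifng, chr10:118440896-118441045, plus strand: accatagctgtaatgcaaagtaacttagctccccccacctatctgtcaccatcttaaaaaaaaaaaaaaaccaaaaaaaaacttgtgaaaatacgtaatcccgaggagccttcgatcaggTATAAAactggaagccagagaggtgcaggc

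Genes of the clustered replication histones led the ranking by fold enrichment. The top 5% of genes was 418 genes in replicate 1, with a fold enrichment of at least 26.405, where the next gene had 26.402. In replicate 2 it was 470 genes with at least 30.75, where the next had 30.74. Both held 202 genes, 2.47% of the genes with a peak in both, and 186 of them coded for protein. Histone genes supplied 21 of the 202.

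Hist1h3i, which encodes a histone H3, had a fold enrichment of 88.5 in replicate 1 and 55.6 in replicate 2, rank 7 and rank 1. Hist1h2ad, a histone H2A gene, had 104 and 46.6. Hist1h3c, Hist1h1b (linker histone H1), Hist1h4a (histone H4) and Hist1h3b completed the 6 histone genes among the 12 leaders, with 59.4 to 74.4 in replicate 1 and 43.4 to 48.1 in replicate 2. All 6 lie in the histone cluster on chromosome 13, and for 4 of them the peak also ran over the span of another histone gene, so their signals cannot be separated. The printed Hist1h3i promoter holds TATAAA at 147 bases before the start and CCAAT at 97 and 56 bases. That of Hist1h2ad holds CCAAT 4 times over both strands. Hist1h2ad shows the limit of a gene-level value: its summit was at 255 bp from the start in replicate 1 and at -3077 bp in replicate 2, inside 1 long peak.

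The other 6 leaders were not histone genes. Alyref2, a paralogue of an mRNA export adaptor, had 81.6 and 45.8. Gtf2a1, a subunit of the general transcription factor TFIIA, had 72.9 and 47.8. Tmsb4x (thymosin beta 4, an actin-binding peptide) had 67.7 and 48.7, with its summits 91 and 80 bp past the start. Icos, the inducible costimulator of T cells, had 61.2 and 42.9 and was the only surface receptor of T cells among the 12. Tti2 (a cofactor of PI3K-like kinases) had 58.4 and 44.4, and Hnrnpab, an RNA-binding protein gene, had 58.2 and 42.9. The leaders ranked between 2 and 44 in replicate 1 and between 1 and 29 in replicate 2.

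**Figure D1:**
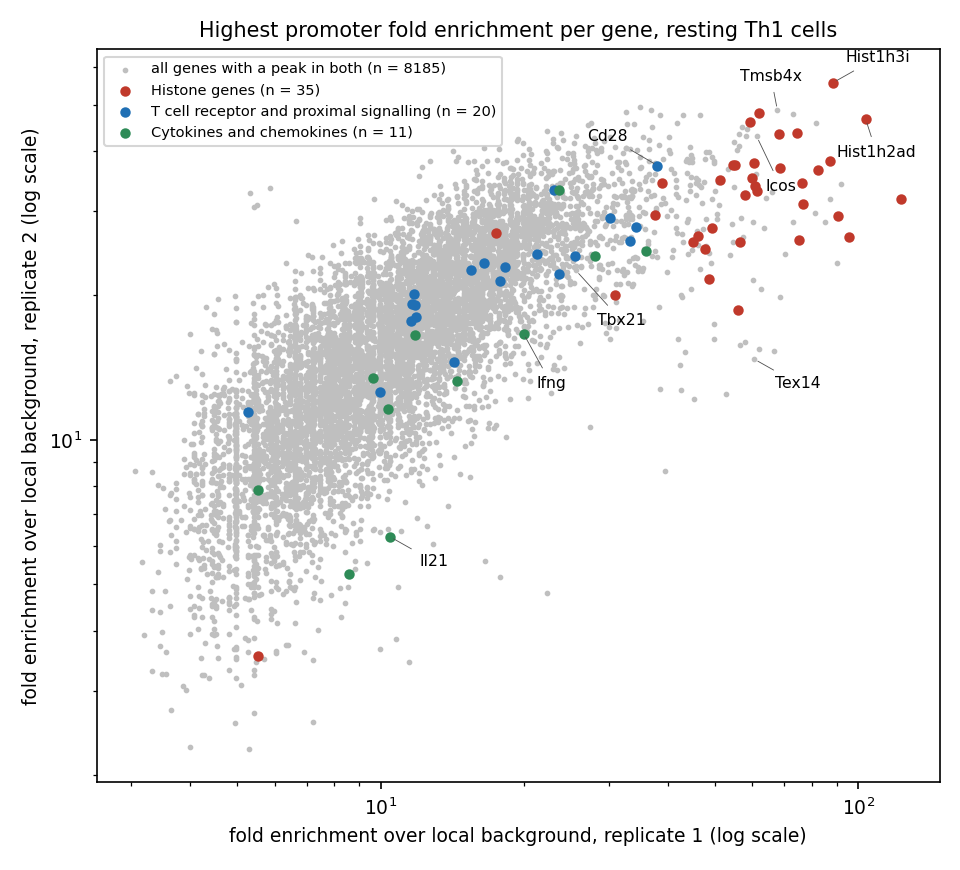
Highest promoter fold enrichment per gene in replicate 1 (x axis, log scale) against replicate 2 (y axis, log scale) for the 8185 genes with a peak in both; each point is 1 gene and colours mark 3 gene lists. Most histone genes lie at the right end, T cell receptor genes in the upper middle and cytokine genes from the lower to the upper part, and Tex14 lies below the cloud with 60.5 in replicate 1 and 14.7 in replicate 2.

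The ranking by pileup, added after values were seen, shared part of its top with that by fold enrichment. Spearman's rho between both measures was 0.95 over the genes of replicate 1 and 0.89 over those of replicate 2. The top 5% by pileup held 335 genes in both libraries (4.09%), of which 137 were also in the shared top by fold enrichment. Tex14, a germ cell gene, led in both libraries with a pileup of 413 and 323. Its fold enrichment was 60.5 in replicate 1, at a local background of 5.84, but 14.7 in replicate 2, at 21.0. Both backgrounds stood above the lowest of their library, 0.659 and 3.41. Genes of U3 and U1 RNA, described below, lie inside the span of Tex14. Rdm1 had a pileup of 309 and 320 and lies beside the array of U2 small nuclear RNA genes on the same chromosome. Hist2h3c1 (322 and 316), Hist1h1c (261 and 316) and Hist1h1d (260 and 316) followed, and Polr2a, which encodes the largest polymerase subunit itself, had 213 and 309.

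High pileups lay close together in replicate 2. Only 4 genes of replicate 1 but 135 of replicate 2 reached 75% of the highest pileup of their library. Among the 20 genes of highest pileup the local background ran from 1.61 to 72.5 in replicate 1. In replicate 2 it ran from 5.62 to 135. At similar pileups fold enrichment therefore followed the local background. In replicate 2 Hist1h1b, with a pileup of 310, had a fold enrichment of 43.4 at a background of 6.18. Hist4h4, with a pileup of 311, had 18.6 at 15.7. Why the pileups lie so close was not tested.

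Genes with known roles in lymphocytes were among those with the longest called peaks. Called length is the sum of the widths of all promoter peaks given to a gene. Among genes with a peak in both, its median was 811 bp in replicate 1 and 1058 bp in replicate 2. The top 5% began at 2444 bp in replicate 1 (the next gene had 2436) and at 2774 bp in replicate 2 (the next had 2772). Both held 350 genes, 4.28% of those with a peak in both and 83.9% and 74.3% of the respective tops. The agreement at the top was therefore closer than by fold enrichment, where the 202 shared genes were 48.3% and 43.0%.

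Nabp1, a single-stranded DNA-binding protein gene, had the longest signal in replicate 1 with 16748 bp and 17121 bp in replicate 2. Gimap4, of a GTPase family of lymphocytes, had 15855 and 17751 bp, and its neighbour Gimap7 had 11627 and 11785 bp. The Gimap4 peak also covered Gimap9, and its summits lay at -8127 and -8116 bp from the Gimap4 start. Satb1, a chromatin organiser of T cell development, had 3 peaks in each library with 13214 and 16922 bp in all, and the summit of its strongest peak lay at -70 and -48 bp from the printed start. Gm8369, an unnamed protein-coding gene of the Ms4a region, had 15575 and 14807 bp, in a peak that ran over Ms4a6c.

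Kinases and signalling genes made up part of the remainder. Pim1, a kinase gene induced by cytokines, had 12109 and 12646 bp. Cish, a feedback inhibitor of cytokine receptors, had 10957 and 10496 bp. Prkcq, the protein kinase C of the T cell synapse, had 9360 and 14928 bp. The gene of the transcription factor Ets1 had 9466 and 12367 bp, all inside its own span.

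Surface genes were also among the 12 leaders by length. Selplg (the selectin ligand PSGL-1) had 9464 and 10695 bp, and Clec2d, a C-type lectin gene, had 9392 and 10630 bp. The 12 leaders placed 1 to 18 in replicate 1 and 1 to 22 in replicate 2. A long peak did not always rank high by fold enrichment in both libraries: Prkcq ranked 305 and 4027 and Cish 72 and 4038. By pileup Prkcq ranked 157 and 619 and Cish 141 and 284.

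**Figure D2:**
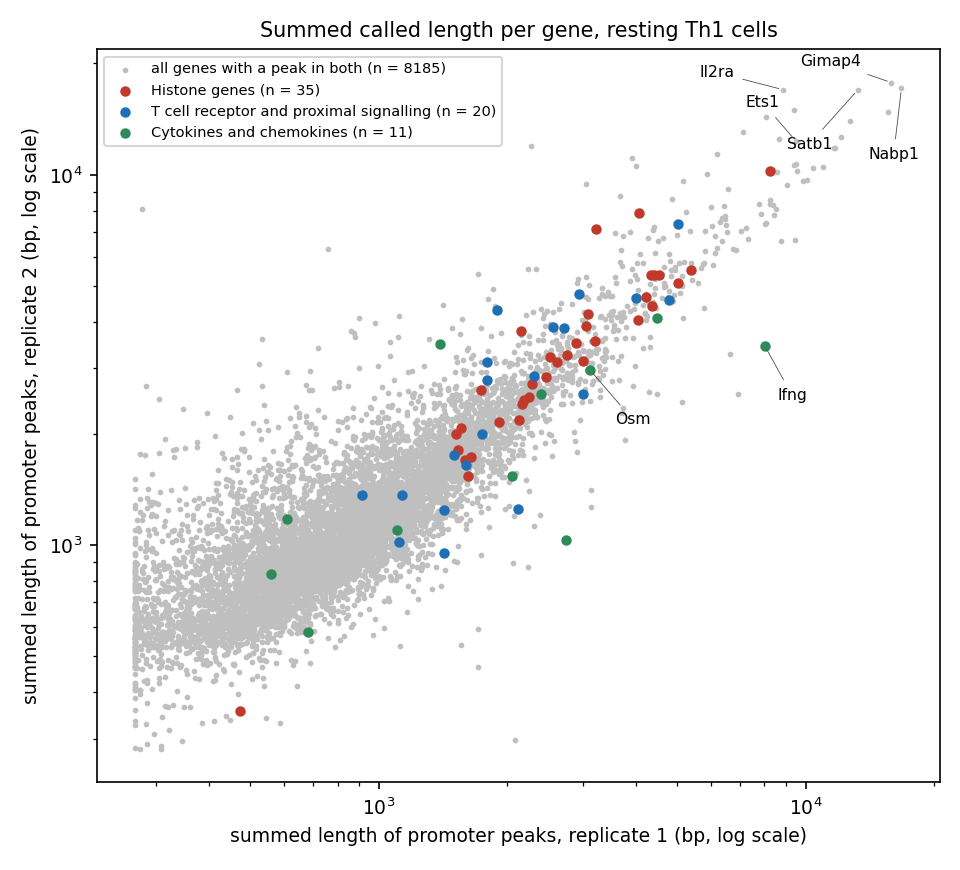
Summed length of the promoter peaks of each gene in replicate 1 (x axis, bp, log scale) against replicate 2 (y axis, bp, log scale), 8185 genes with a peak in both, with 3 gene lists coloured. Nabp1, Gimap4 and Satb1 lie at the upper right in both libraries, and Ifng lies below the cloud because it had 8006 bp in replicate 1 and 3459 bp in replicate 2.

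Most genes had 1 promoter peak, 7461 in replicate 1 and 8534 in replicate 2. Because of ties, the rule for the top 5% by number of peaks took in all genes with at least 2 peaks, 898 and 871 genes. These sets are larger than 5%, which was 418 and 470 genes by fold enrichment. Both held 426 genes (5.2%), a share not comparable with those of the other rankings. Spearman's rho for the number of peaks was 0.45. Arid5b, a chromatin regulator gene, had 5 peaks in both libraries, and Pik3cd, the PI3-kinase subunit of leukocytes, had 5 and 4. Nfkb1 (the NF-kB p105 subunit) and Vgll4 (a TEAD cofactor) had 4 in each, and Plec (plectin) had 4 and 5. Each of these 5 genes spans more than 50 kb.

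Only 69 genes were in the shared top by both fold enrichment and length, and 63 of them were also in the shared top by pileup. Genes of this set that bear on T cells, chosen after values were seen, were Icos, Cd28, Satb1, Gimap3, Gimap4, Gimap7, Irf1, Socs1, Mcl1, Id2, Klf6 and Jun. Within a library, rho between fold enrichment and length was 0.67 and 0.59.

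Base composition was described next. The RefSeq window was 250 bases before to 50 after the start, known for 17492 coding genes. Here a peak means an assigned peak, and none means no assigned peak in either library. By position 1066 coding genes had a peak in both without an assigned one in both. Some of them, such as Tnf, count here as having none. The median GC content was 61.3% for genes with a peak in both and 51.3% for genes with none. The median number of CpG was 22 and 5. TATAAA occurred in 13.3% of all coding promoters, in 6.34% of those with a peak in both and in 18.4% of those with none. In the shared top by fold enrichment it occurred in 21.6%, and in 13.5% once histone genes were left out. Among histone genes with a peak in both it occurred in 60.6% and CCAAT in 75.8%, against 39.0% of all promoters for CCAAT. The 8-base words CCGGAAGT and CGCATGCG, searched on both strands like the others, occurred in 9.96% and 4.80% of promoters with a peak in both and in 2.102% and 1.03% of those with none. In the shared top by length they occurred in 3.91% and 1.17%. These shares are descriptions without a test, and no word searched contains another.

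Gene lists were then counted against the background of 35.7% of coding genes with an assigned peak in both libraries. Cell identity was read first. All 20 genes of the T cell receptor and proximal signalling list had a peak in both, among them Cd3e, Cd3d, Cd3g, Cd247, Cd4 and Lck. None of the 8 B cell markers or 10 myeloid markers had one in either library, although 1 summit in each library lay inside or beside Spi1 and 1 of replicate 1 at Adgre1. Of 6 NK and CD8 T cell markers Klrd1 alone had one in both, with a fold enrichment of 6.90 and 3.61, and Cd8b1 had one in replicate 2 alone with 2.77. Of 5 erythroid markers Klf1 had one in replicate 2 alone with 4.96. Of 10 non-haematopoietic markers Pecam1, an adhesion gene that leukocytes also express, had one in both with 10.97 and 15.2. The labelled cell type, CD4+ T cells, was thus matched by its markers.

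**Figure D3:**
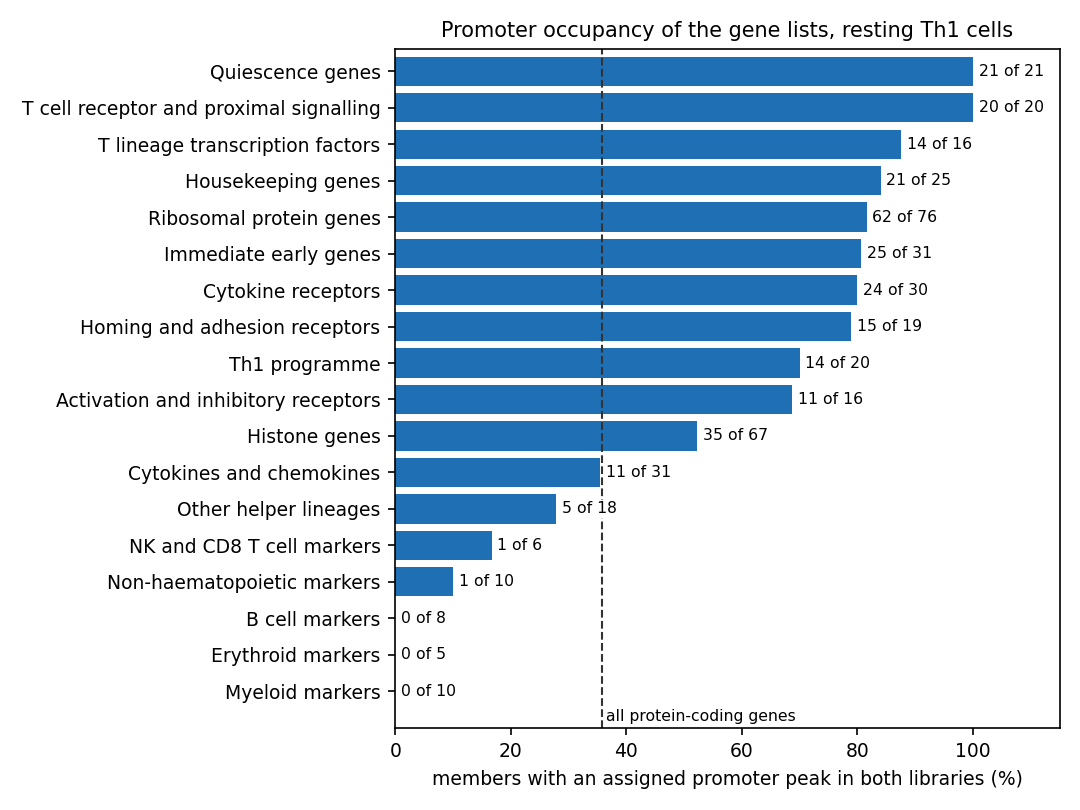
Share of the members of each gene list with an assigned promoter peak in both libraries (bars, %), with the number of members at each bar; the dashed line is the 35.7% of all protein-coding genes. The T cell receptor and quiescence lists are at 100%, cytokines and chemokines at the line, and B cell, myeloid and erythroid markers at 0.

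Receptor and signalling genes stood high inside both libraries. In this and the following lists of T cell genes, members other than the 5 highest and those without a peak were chosen after values were seen. The median percentile by fold enrichment of the 20 genes was 82.6 in replicate 1 and 79.5 in replicate 2, where all genes with a peak in both had 50.5 and 56.3. Cd28, the main costimulatory receptor, had a fold enrichment of 38.0 and 37.3 and lengths of 3998 and 4658 bp. Ptprc (the CD45 phosphatase) had 30.2 and 29.0, Thy1 (a surface glycoprotein of T cells) 23.0 and 33.3, and Cd247 (the zeta chain) 34.3 and 27.7. Plcg1, the phospholipase of the receptor pathway, was lowest in replicate 1 with 5.28, and had 11.4 in replicate 2. Cd4 itself was near the middle, with 11.6 and 17.7.

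Of 16 T lineage transcription factors 14 had a peak in both. Satb1 had 34.8 and 34.1, Foxo1 (a factor of naive and memory cells) 27.1 and 40.6, Bcl11b (the T cell commitment factor) 25.5 and 29.7, Cbfb (the partner of Runx proteins) 21.7 and 37.9 and Runx3 18.6 and 22.5. Gata3, the factor of Th2 cells and of T cell development, was low with 5.48 and 8.57. Tcf7 and Tox had no promoter peak in either library. Tcf7, which encodes TCF-1, had 1 summit in replicate 1 and 2 in replicate 2 inside or within 1000 bp of its span, and Tox had none. By called length the list stood higher than by fold enrichment, with a median percentile of 95.9 and 95.8. Ikzf1, chosen after values were seen, had 8642 and 12477 bp at a fold enrichment of 15.2 and 10.95.

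Of the 20 genes of the Th1 programme 14 had a peak in both, Nkg7 and Prf1 in replicate 2 alone, and Cxcr3, Eomes, Twist1 and Havcr2 in neither. Irf1, an interferon-induced factor, was highest with 46.8 and 33.7. Cxcr6 (a chemokine receptor) had 33.4 and 29.4, and Bhlhe40 (a cofactor of cytokine production) 25.4 and 28.8. Tbx21, which encodes the Th1 master factor T-bet, had 25.6 and 22.6, with summits at -5 and 41 bp from the printed start. The genes of the IL-12 receptor chains were lower, Il12rb2 with 15.8 and 14.5 and Il12rb1 with 9.85 and 17.4, and Stat4, the factor downstream, had 14.1 and 20.2. Of the cytolytic genes Gzmb (granzyme B) had 33.7 and 21.1 over 6113 and 6830 bp, whereas Prf1 (perforin) had no peak in replicate 1 and 7.90 in replicate 2.

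Of 18 genes of other helper fates 5 had a peak in both (27.8%), against the background share of 35.7%. Those without an assigned promoter peak included Il5, Il13, Il17a, Il17f, Il22, Il9, Foxp3, Cxcr5, Ccr6 and Ccr8, although 1 summit of replicate 2 lay inside or beside Cxcr5. Maf, a factor of IL-10 and IL-21 production, had 35.4 and 22.9. Bcl6 (the follicular helper factor) had 14.98 and 22.2 and Rora (a factor of Th17 cells) 7.84 and 14.5. The peak given to Rora lay more than 1000 bp from its known RefSeq start in both libraries. Il21 had 10.5 and 6.28 and Ccr4 (a Th2 chemokine receptor) 12.99 and 8.31. Il4 and Ahr, a ligand-activated factor, appeared in replicate 2 alone with 4.80 and 4.36.

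Cytokine genes were occupied at the background share. Of 31 members 11 had an assigned peak in both (35.5%) and 19 in neither. Those without an assigned peak were Il2, Il3, Csf2, Tnf, Lta, Ltb, Il5, Il13, Il17a, Il22, Ccl1, Ccl3, Ccl4, Ccl5, Xcl1, Tnfsf4, Tnfsf8, Tnfsf11 and Tnfsf14. For 3 of these the assignment decides the result. A peak of 7836 bp in replicate 1 and 7861 bp in replicate 2 covered the starts of Tnf and Lta but was given to Mir6974, and one of 4217 and 4061 bp covered the start of Ltb but was given to Mir6973a. Under those names the fold enrichment was 57.4 and 26.5 at Mir6974 and 31.5 and 17.8 at Mir6973a. By position, 10 of the 25 cytokine genes with a known start had a peak in both, where 41.9% of coding genes with a known start did.

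Ifng, the defining Th1 cytokine, had a fold enrichment of 19.9 and 16.7, with summits 136 and 86 bp past the printed start. Its called length of 8006 bp ranked 34 in replicate 1, and 3459 bp ranked 288 in replicate 2. Among cytokine genes with an assigned peak, Osm (oncostatin M) was highest by fold enrichment in replicate 1 with 36.0, and had 24.8 in replicate 2. The peak over the starts of Tnf and Lta, given to Mir6974, was higher with 57.4 and 26.5. Tgfb1 had 23.6 and 33.2, and Il16 (a chemoattractant cytokine) 28.1 and 24.1. Il10, an anti-inflammatory cytokine, had 14.4 and 13.3 over 4484 and 4099 bp.

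The remaining cytokine genes were lower. Fasl, the death ligand, had 11.8 and 16.6, Tnfsf10 (TRAIL) 10.4 and 11.6, and Mif 9.62 and 13.5. Il21, in both lists, had 10.5 and 6.28, Lif 8.61 and 5.24 and Cd40lg, the ligand for B cell help, 5.54 and 7.85. By position Lif had no peak in either library, since the peak given to it lay more than 1000 bp from its known RefSeq start. Il4 had 4.80 in replicate 2 alone. The genes for IL-2 and for the chemokines Ccl3, Ccl4 and Ccl5 had neither a peak at the start nor a summit inside or within 1000 bp of their span.

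**Figure D4:**
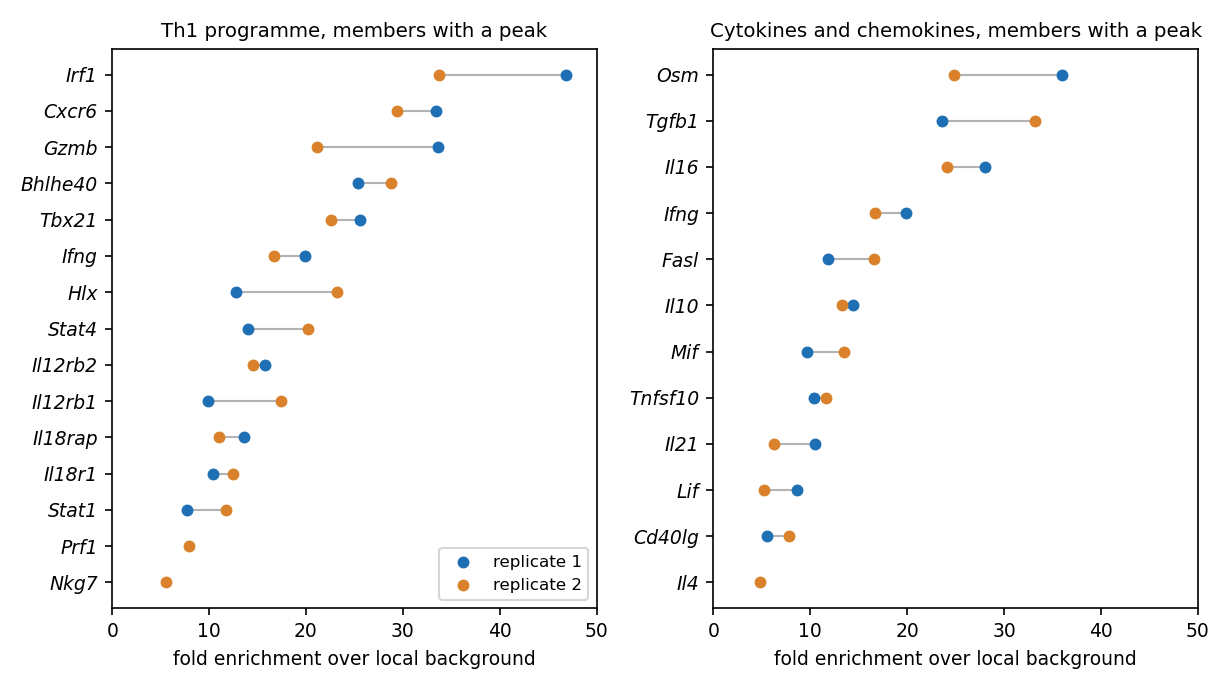
Fold enrichment over local background (x axis) of each member of the Th1 and cytokine lists with an assigned peak in at least 1 library (1 gene left out). Tnf, Lta and Ltb have no assigned peak and are not shown. Points are libraries and lines join the points of a gene. Irf1 and Osm are at the top with 46.8 and 36.0 in replicate 1, and Prf1, Nkg7 and Il4 have a point of replicate 2 alone.

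Of 30 cytokine receptor genes 24 (80.0%) had a peak in both. Genes of the lists from here on were named after their values were seen. Il2ra, the high-affinity chain of the IL-2 receptor, had 8834 and 16991 bp, rank 20 and rank 3 by length, at a fold enrichment of 31.2 and 17.1. Il7r, the receptor of resting T cells, had 6177 and 11353 bp at 49.97 and 17.4. Il1r1, Il1rl1 and Ifngr2 had no assigned promoter peak, although 1 summit in each library lay inside or beside Il1rl1. Of the activation and inhibitory receptors 11 of 16 had a peak in both. Icos led them, Cd69 had 28.4 and 28.6, Ctla4 24.2 and 14.2, and Pdcd1 (PD-1) 4.595 and 12.03. Tnfrsf4 (OX40) is a case of assignment: it had 49.8 over 4138 bp in replicate 1, whereas in replicate 2 a peak of 11972 bp over its start was given to Gm10560. Of the homing and adhesion receptors 15 of 19 were occupied in both, Ccr7 with 11.8 and 11.03 and Cd44 with 5.43 and 9.21.

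Genes that respond within minutes to a stimulus were already occupied. Of 31 immediate early genes 25 (80.6%) had a peak in both, and their median percentile by fold enrichment was 95.4 in replicate 1 and 79.6 in replicate 2. Zfp36l1 and Zfp36, which encode mRNA decay proteins, had 56.2 and 43.4, and 53.2 and 36.7. Klf6 had 48.7 and 39.9, Jun 36.2 and 33.0, Fos 23.7 and 32.7 and Myc 34.0 and 23.2. Egr1 was low with 6.64 and 8.64, Nr4a1 had 7.79 in replicate 2 alone, and Fosb, Fosl1, Egr2 and Egr3 had no assigned promoter peak, although 1 summit in each library lay inside or beside Fosb. Ier3 had no assigned peak either, but a peak of 3380 and 2981 bp over its start was given to Flot1.

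All 21 genes of the quiescence list had a peak in both. Klf2, a factor of quiescent T cells, had 28.2 and 41.5, Foxo1 27.1 and 40.6, Txnip (an inhibitor of thioredoxin) 47.3 and 27.6 and Btg1, an antiproliferative gene, 38.2 and 18.9. The lists overlap with others in part, since Il7r, Ccr7, S1pr1, Foxo1 and Btg2, among others, stand in 2 of them. The median percentile by fold enrichment was 94.1 and 71.8.

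Genes expressed in all cells set the scale for these values. Of 25 housekeeping genes 21 had a peak in both, with a median fold enrichment of 33.1 and 29.9, and 9 were in the shared top by fold enrichment. Of 76 ribosomal protein genes 62 did, with a median of 20.5 and 23.8 but a median length of 1065 and 1191 bp, and none was in the shared top by length. Of 67 histone genes 35 had an assigned peak in both, with a median of 59.99 and 33.0. By position 60 of the 62 histone genes with a known start did, since 1 peak covers several histone starts but is given to 1 gene. Likewise all 56 ribosomal protein genes with a known start had a peak by position in both.

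Summits outside the promoter lists were placed next, 10484 in replicate 1 and 7239 in replicate 2 on the assembled chromosomes. They were classed against the annotation as near a start (1000 bp), inside a protein-coding gene, up to 5 kb past its 3′ end, in another annotated gene, or intergenic. Gene bodies held 36.5% (35.6% to 37.4%, Clopper-Pearson 95% interval for counting error) in replicate 1 and 49.0% (47.8% to 50.1%) in replicate 2. Intergenic sequence held 48.3% and 30.0%, and the zone past a 3′ end 4.91% and 7.42%. The libraries thus differed by more than counting error in each of these classes.

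Fewer of these summits than of the promoter summits were found in the other library. A summit of the other library lay within 500 bp for 39.4% of replicate 1 and 55.9% of replicate 2, against 91.2% and 82.1% for promoter summits. The share was lowest for the weakest summits. In replicate 1 it was 22.2% at a −log10 q below 5, 77.1% at 10 to 20 and 87.5% at 20 to 50, but 74.6% from 50 upward (150 of 201). In replicate 2 it was 19.4%, 61.1%, 86.8% and 93.7% in the same ranges. Among the summits found in both, the classes were alike: 46.4% and 46.0% in gene bodies, and 31.2% and 31.9% intergenic.

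The surplus of replicate 1 was uneven over the chromosomes. On chromosomes 10 to 15, a group chosen after values were seen, it had 5192 non-promoter summits against 2333 in replicate 2, a ratio of 1.39 to 3.06 per chromosome. On chromosomes 1 to 9 and 16 to 19 it had 4929 against 4762, a ratio of 0.911 to 1.19. Chromosome X had a ratio of 2.45, with 333 against 136. Promoter summits did not follow this split, with ratios of 0.916 on chromosomes 10 to 15 and 0.900 on the other autosomes. The surplus was weak signal: at a −log10 q of at least 10 the ratios were 0.541 and 0.479. Of the 3779 intergenic summits of replicate 1 not found in replicate 2, 42.8% lay more than 100 kb from any start, against 7.91% of the 1289 that were found. In replicate 2 these shares were 7.26% of 881 and 7.67% of 1291. The median distance to a start in replicate 1 was 78.6 kb against 19.7 kb. What made the surplus was not tested, and summits are described below where both libraries held them.

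**Figure D5:**
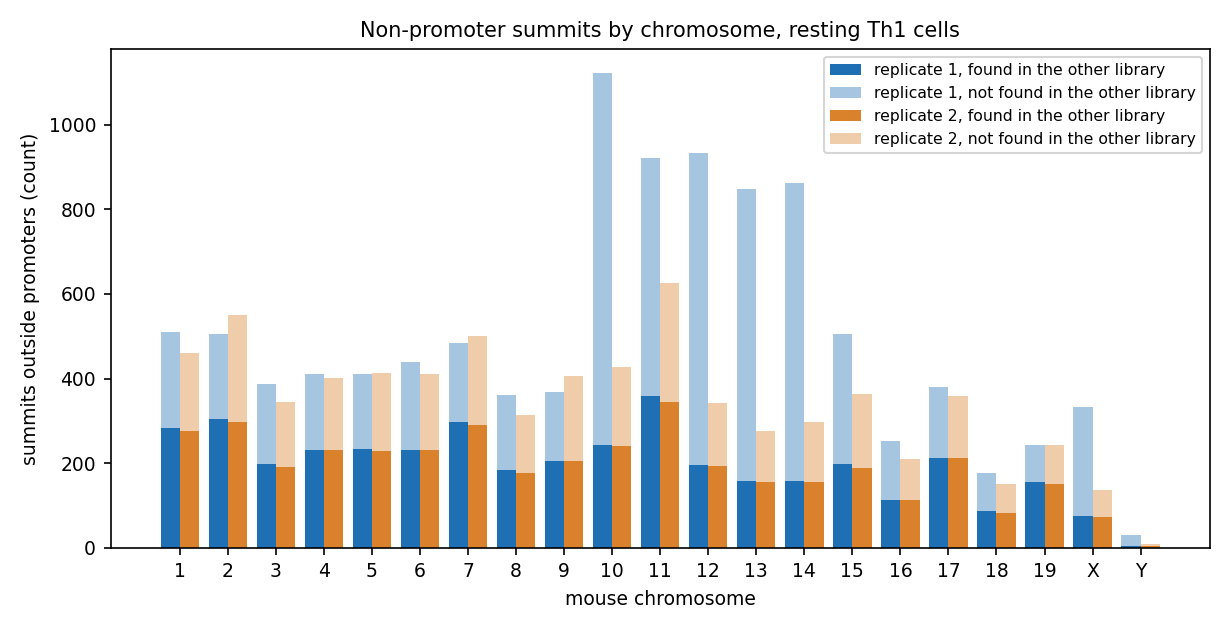
Number of summits outside the promoter lists on each mouse chromosome (x axis) in replicate 1 (blue) and replicate 2 (orange); solid parts were found in the other library within 500 bp and pale parts were not. The solid parts are alike in both libraries, and the pale parts of replicate 1 stand out on chromosomes 10 to 14 and X.

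Gene-body summits found in both libraries lay mostly in genes with polymerase at the start. Of the 1916 in replicate 1, 69.7% lay in a gene with a promoter peak in both libraries, as did 69.4% of the 1861 in replicate 2. Of those not found in the other library 43.2% did in replicate 1 (of 1910) and 70.1% in replicate 2 (of 1683). Only in replicate 1 was the share therefore lower among the unshared summits. Of all coding genes, 35.7% had a promoter peak in both, but the share of gene-body sequence in these genes was not computed. Along the gene from start to end, cut into 10 equal parts, part 1 held 13.99% of the summits found in both in replicate 1 and 14% in replicate 2, part 8 held 7.61% and 7.43%, and part 10 held 9.11% and 9.26%.

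These summits spread over 1189 genes, of which 133 held at least 3 and 40 at least 5. Ets1 led with 16 in each library over 122 kb. Bach2, a repressor that keeps T cells from terminal differentiation, held 12 in each over 348 kb. Maml3 (a Notch coactivator) held 11 and 10, Foxp1 (a quiescence factor) 10 and 10, Bcl11b 8 and 8 and Ccnd3, cyclin D3, 8 and 8. Prkch, a protein kinase C of lymphocytes, held 9 and 9, as did Pitpnc1, a phospholipid transfer protein gene. Wwox, an oxidoreductase gene at a fragile site, held 11 and 9 over 913 kb. Spef2, a sperm flagellar gene, held 10 and 9 and had a promoter peak of 18.2 in both. Per 100 kb of replicate 1 the number ran from 1.20 in Wwox to 13.2 in Ets1, so gene length alone did not order these genes. The highest −log10 q was 18.3 and 57.6 in Ets1 and 101 and 186 in Maml3.

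The strongest non-promoter summits lay at small RNA genes. All 20 with the highest −log10 q in replicate 1 among those found in both lay within 500 bp of a gene annotated as small nuclear RNA, the class that holds the RNAs of the spliceosome. U3 RNA, annotated in the same class, acts in the processing of ribosomal RNA. The 4 strongest lay on Rnu3b2, Rnu3b3, Rnu3b4 and Rnu3b1 inside the span of Tex14, with −log10 q of 905 to 823 in replicate 1 and 282 to 209 in replicate 2. Rnu1a1 (U1 RNA) lies in the same span, with 607 and 305. Rnu2-10 (U2 RNA) had 653 and 313, and Rnu5g (U5 RNA) 545 and 344. In each library 41 of the 1004 annotated small nuclear RNA genes (4.08%) had a shared non-promoter summit within 500 bp, a share close to the 3.91% of long non-coding RNA genes (498 of 12727). Transfer RNA genes, which RNA polymerase III transcribes, had one at 25 of 408 in replicate 1 (6.13%) and at 28 in replicate 2 (6.86%).

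Segments of the antigen receptor loci were next. These loci recombine in T cells, and their segments have no entry in the promoter lists. At the beta locus 5 of 22 variable segments had a summit within 500 bp in both libraries, and at the alpha and delta locus 22 of 119 did. No gamma segment had one in both. At Trav14d-1, Trav15d-1-dv6d-1, Trav15d-2-dv6d-2 and Trav15n-1 the summits of the libraries lay more than 500 bp apart, so they were not shared summits. Of all 394 annotated variable segments, 24 (6.09%) had a shared non-promoter summit within 500 bp, against 3.91% of long non-coding RNA genes. The strongest, on Trbv12-2 at chr6:41118864-41119364 (mm10), had a −log10 q of 377 in replicate 1, where it ranked 21 among all non-promoter summits, and 75.9 in replicate 2, where it ranked 506. A summit on Trbv31 had 221 and 75.3. On the alpha side Trav5n-4 had 130 and 135 and Trav15-1-dv6-1 97.9 and 201, and Trac, the constant region, had 13.6 and 26.0. The order of the segments therefore differed between the libraries. The cells carry a transgenic receptor, and reads of its copies cannot be told apart here from those of the endogenous segments.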

How the data were processed

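Polymerase II ChIP-seq of non-restimulated Th1 cells was analysed in 2 libraries. The submitters' processing notes name BWA 0.7.13, Picard 1.119, MACS2 2.1.0 and mm10, without roles. The tool that annotated genes and any use of the input are not given in the sources used here. The authors deposited, per library, promoter peaks with the pileup (a coverage signal), fold enrichment (a ratio), −log10 p-value and −log10 q-value (names per the file headers), and the summits of all peaks with their −log10 q-value. Total read counts were not analysed here.

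From these, genes were ranked inside each library by the highest fold enrichment, summed peak length, number of peaks and highest pileup, and those in the top 5% of both were listed with Python 3.11.15, pandas 2.3.3, numpy 2.4.6 and scipy 1.17.1. Local background was computed as (pileup + 1)/fold enrichment − 1. Summits were matched within 500 bp and placed against RefSeq genes on GRCm38. RefSeq starts were at hand for 79.9% of coding genes. Named genes were, among protein-coding genes high in both, the 12 leading by fold enrichment, 12 by length and 5 by number of peaks (by the lower of both ranks), every cytokine, the 5 highest and all unoccupied members of the T cell lists, and the 10 genes with most shared gene-body summits. A few genes that these rules or lists hold count in the totals and are not reported here. The members and lists were chosen with earlier results of these data known. With 1 group of 2 libraries no test was run, and intervals cover counting error only. The ranking code was tested on simulated data. The alternatives tried were a stricter −log10 q-value, lists of equal length, assignment by position, other tops, zones and distances, and single libraries.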

Additional observations from a re-analysis of the deposited data

How the results depend on the processing

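No paired analysis was possible because the results come from 1 group and from no test. With peaks of −log10 q of at least 5, the Jaccard index was 0.657, rho 0.773 for fold enrichment, 0.788 for length and 0.853 for pileup, the pooled share of non-promoter summits in gene bodies 42.8%, intergenic 37.1% and past a 3′ end 6.45% (main values 41.6%, 40.9% and 5.94%), and the shares found in the other library 53.5% and 49.4%. With lists of equal length these were 0.671, 0.793, 0.800, 0.865, 42.6% in gene bodies, 39.0% intergenic, 43.9% and 51.1%. A single library gave 36.5% to 49.0% in gene bodies, 30.0% to 48.3% intergenic and 4.91% to 7.42% past a 3′ end. The genes high in both were 498 and 53 by fold enrichment, 678 and 145 by length and 671 and 136 by pileup with the top 10% and 2%, and 892 by number of peaks with the top 10%. By number of peaks, ties put every gene of replicate 2 in that top 10%. A zone of 2 kb gave 42.9% intergenic and 3.52% past a 3′ end. Matching within 200 bp found 32.5% and 46.7%, and within 1000 bp 43.7% and 61.3%. Without chromosomes 10 to 15, an alternative chosen after seeing the data, 53.3% of replicate 1 was found in replicate 2, with 44.3% in gene bodies, 36.6% intergenic and 7.01% past a 3′ end.

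The total counts of genes, regions and T cell list members with a peak in both stayed within 1.5 times under each alternative run. Of the counts of single lists, 83 did and 7 did not, 5 of these by position. Those 5 were histone genes (60), homing receptors (9), other helper genes (3), and NK and non-haematopoietic markers (0 each). By position only genes with a known start can count, and 1 peak counts for every start it covers. A peak given to a gene but away from its known start, as at Rora, does not count. The other 2, NK and erythroid markers, came from replicate 2 alone (2 and 1). Leaving out a library was not possible for results that need both (regions, genes high in both, rank agreement, shared summits). The median −log10 q-value was lower in replicate 1, 7.82 against 34.5 in replicate 2. An absent peak in replicate 1 can therefore be a limit of detection and does not show an empty promoter. Read depth per library and mappability were not analysed here, and reads of repeated families (histone, small nuclear RNA and antigen receptor genes) could not be separated. Pileup, fold enrichment and length do not measure RNA made.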

Other observations

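Non-coding genes supplied part of the highest polymerase signal, and the genes in these paragraphs were chosen after values were seen. By called length Gm13546, a long non-coding RNA gene that overlaps the span of Cytip, had 12689 bp in replicate 1 and 13961 bp in replicate 2, rank 5 and rank 8. Mir21a, a microRNA gene induced in activated T cells, had 11724 and 11826 bp, and Mir142b, at a microRNA locus specific to blood cells, had 8404 and 7807 bp. The nuclear RNA gene Neat1 had 8358 and 10305 bp at a fold enrichment of 70.0 and 24.4, and its neighbour Malat1 had 5865 and 10070 bp at 85.3 and 28.4.

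By fold enrichment Gas5, a host of small nucleolar RNAs, had 49.4 and 39.0, rank 78 and rank 83. Snhg8 had 44.5 and 35.3 and Snhg3 had 39.0 and 38.6, both hosts of the same kind. Rnu12, the U12 RNA of the minor spliceosome, had 92.1 in replicate 1, rank 4, and 34.1 in replicate 2, rank 238. A microRNA name at a peak need not mean a microRNA promoter, as the peak given to Mir6974 covered the starts of Tnf and Lta. The list of shared top genes by both fold enrichment and length held 2 microRNA names, Mir339 and Mir7050.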
